A study of Bos taurus with 9 samples.

Results

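Transcript levels of 10 genes of the unfolded protein response and the integrated stress response were examined in 9 bovine blastocysts sequenced one by one at D8, 5 WT and 4 *TEAD4* KO. The genes, *HSPA5*, *HSP90B1*, *XBP1*, *ATF4*, *ATF3*, *DDIT3*, *TRIB3*, *ASNS*, *CHAC1* and *SESN2*, were chosen by symbol for their place in these pathways, with earlier results of these data known. All 10 were found among the 21512 genes of the table, and all 10 were among the 14599 genes tested, those whose median over the 9 libraries exceeded 0.1 TPM. TPM, a unit of transcript abundance, corrects for transcript length and makes each library sum to 1000000, so levels can be compared between genes, but it keeps no read counts, so the counting error of a value cannot be computed from it.

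Embryos were produced by fertilisation *in vitro* with sperm of 1 bull and cultured to D8 in synthetic oviduct fluid with fetal calf serum. Editing was done by injecting matured oocytes, before fertilisation, with Cas9 mRNA and a guide RNA against *TEAD4*, which encodes a DNA-binding partner of the Hippo pathway coactivator YAP1. Embryos were classed as KO where they carried frame-disrupting alleles of *TEAD4* only, and as WT where no allele was mutated, a class that the study's methods equate with the controls, injected with Cas9 mRNA alone. Each library came from 1 whole blastocyst, so that trophectoderm, inner cell mass and hypoblast contribute to each value. Fewer cells of a type and less RNA per cell cannot be told apart in such libraries. The sex of the embryos and the batches of collection are not given in the sources used here. Libraries are named WT_1 to WT_5 and TE_1 to TE_4, TE being the KO embryos.

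The unfolded protein response is set off by misfolded proteins in the endoplasmic reticulum (ER), which are sensed by IRE1, PERK and ATF6. IRE1 splices the *XBP1* transcript, ATF6 is cleaved to a transcription factor, and both raise chaperones such as the *HSPA5* product BiP. PERK phosphorylates the initiation factor eIF2, as do the kinases GCN2, PKR and HRI in response to amino acid shortage, double-stranded RNA and haem shortage, and this shared step, the integrated stress response, lowers general translation while raising translation of *ATF4*. ATF4 in turn activates genes of amino acid supply and feedback regulators such as *DDIT3* and *TRIB3*. In embryos cultured *in vitro*, these pathways are known to respond to culture conditions. TPM values per gene show neither the splicing of *XBP1* nor the translation of *ATF4*, so the 10 genes were followed here as transcripts.

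*TEAD4* itself was at 18.0, 52.5, 54.3, 36.5 and 43.4 TPM from WT_1 to WT_5 and, from TE_1 to TE_4, at 42.8, 41.8, 12.5 and 22.2 TPM. The lowest value was in a KO embryo, but the groups overlapped, with WT_1 below 3 of the 4 KO embryos. A frame-disrupting mutation can leave the transcript in place, so its level does not check the genotype labels. The log2 fold change of *TEAD4*, KO minus WT on log2(TPM + 1) as for all fold changes given here, was −0.51 ± 0.42 (SE; limma with Benjamini-Hochberg adjustment, adjusted p = 0.947), and −0.16 without TE_3.

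None of the 10 stress response genes differed between WT and KO at the threshold used, an adjusted p under 0.05 with an absolute log2 fold change above 1 in limma (0 of 10, against 3 of 14599 genes tested, 0.0205%). The study's own analysis of these embryos, with DESeq2 and shrunken fold changes, reported many more genes as changed than the 3 called here. The calls given here are those of limma on TPM alone. At an unadjusted p under 0.05 in limma the count was also 0 of 10, where 5.90% of all genes tested passed, 2.07% as higher and 3.83% as lower in KO. *XBP1*, *ATF4* and *CHAC1* were near this limit, with unadjusted p of 0.0526, 0.0525 and 0.053 in limma, and the count was 3 with array weights and without TE_2, 2 without WT_1, and 1 with a pseudocount of 0.1 TPM, a median above 1 TPM or size factors and without WT_4 or TE_1. Over all genes tested the number at that limit also rose, from 861 of 14599 to 1151 with array weights and to 1235 of 14661 without TE_2, and it was 902 of 14733 without WT_1. Of the 861, 302 were higher and 559 lower, but with size factors these were 431 and 523, and without TE_1 the direction turned, to 518 and 462. The mean of log2(TPM + 1), the scale of all counts of lower or higher means given here, was lower in KO for 7 of the 10 genes, with 55.8% of all genes tested on that side (without TE_1, 54.3% were on the other), and the median log2 fold change of the 10 was −0.33, against −0.046 over all genes tested. The median of the 10 was −0.15 without WT_3 and without TE_3 and −0.17 with array weights, and that of all genes tested was 0.0376 without TE_1. No gene of the 10 had every KO embryo below every WT embryo, which 1.23% of all genes tested did, or every KO embryo above every WT embryo (0.801%). Embryos of the same genotype differed widely for several of the genes. *HSPA5* and *HSP90B1* were high in WT_1 and TE_2 and lowest in WT_4, *ATF4*, *DDIT3*, *TRIB3* and *CHAC1* were highest in WT_3 and lowest in TE_3, and the other 4 genes had other orders; whether the genes differ in this by role was not tested.

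**Figure D1:**
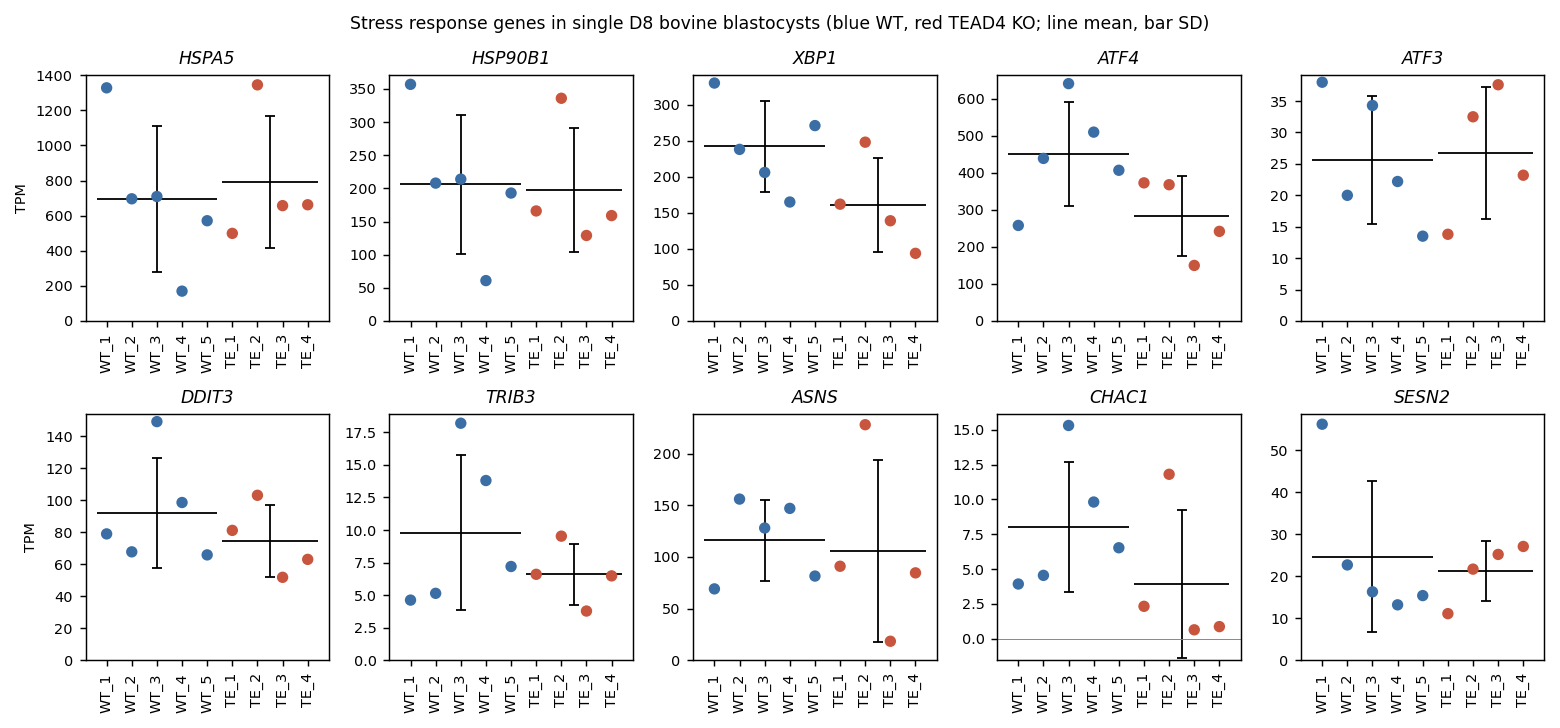
Level of each of the 10 genes in TPM (vertical axis, starting at 0 except where the SD bar of *CHAC1* reaches below it) in each of the 9 embryos (horizontal axis; blue WT, red *TEAD4* KO), with the mean of each group as a line and the SD as a bar (n = 5 WT, 4 KO). The groups overlap in all 10 panels; WT_4 is lowest for *HSPA5* and *HSP90B1*, and TE_3 is lowest for *ATF4*, *DDIT3*, *TRIB3*, *ASNS* and *CHAC1*.

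*HSPA5* encodes BiP, the main chaperone of the ER, which also holds the stress sensors inactive. It was at 1328, 696, 709, 170 and 571 TPM from WT_1 to WT_5 and, from TE_1 to TE_4, at 499, 1345, 657 and 662 TPM. WT_1 and TE_2 were nearly equal and far above the rest, WT_4 was far below, and the KO values lay within or just past the range of the WT values. Mean levels were 695 ± 416 TPM (SD, n = 5) for WT and 791 ± 377 TPM (SD, n = 4) for KO, a difference smaller than either SD. The log2 fold change was 0.35 ± 0.50 (SE; limma with Benjamini-Hochberg adjustment, adjusted p = 0.982), with a 95% interval from −0.73 to 1.43, and the exact two-sided permutation test, which takes all 126 ways to divide the embryos into groups of 5 and 4 and whose smallest possible p is 0.0159, gave p = 0.730. Its sign rested on WT_4, without which the log2 fold change was −0.09.

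*HSP90B1* encodes GRP94, the HSP90 chaperone of the ER lumen. Its levels were 357, 208, 214, 60.9 and 193 TPM from WT_1 to WT_5 and, from TE_1 to TE_4, 166, 336, 129 and 159 TPM. The same embryos stood out as for *HSPA5*, with WT_1 and TE_2 high and WT_4 low, and all 4 KO values lay inside the WT range. Group means were 206 ± 105 TPM (SD, n = 5) and 198 ± 93.8 TPM (SD, n = 4), and the log2 fold change was 0.034 ± 0.45 (SE; limma with Benjamini-Hochberg adjustment, adjusted p = 0.996), so that the mean was lower in KO in TPM but not on the log2 scale. The log2 fold change was −0.35 without WT_4 and −0.079 with limma's array weights, so no direction held for this gene.

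*XBP1* encodes the transcription factor made active by IRE1. It was at 330, 238, 206, 165 and 271 TPM from WT_1 to WT_5 and, from TE_1 to TE_4, at 162, 248, 139 and 93.8 TPM. Below every WT embryo were 3 of the 4 KO embryos, TE_1 by a narrow margin, while TE_2 was above 3 WT embryos. WT embryos averaged 242 ± 62.9 TPM (SD, n = 5) and KO embryos 161 ± 64.9 TPM (SD, n = 4), and the log2 fold change of −0.64 ± 0.30 (SE) did not pass the threshold (limma with Benjamini-Hochberg adjustment, adjusted p = 0.836). Its 95% interval ran from −1.28 to 0.0083, and the exact two-sided permutation p was 0.111. Without TE_4 the log2 fold change was −0.41.

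*ATF4* encodes the central transcription factor of the integrated stress response. The transcript was at 258, 439, 641, 510 and 407 TPM from WT_1 to WT_5 and, from TE_1 to TE_4, at 373, 368, 150 and 242 TPM. TE_3 and TE_4 were below every WT embryo, TE_4 narrowly, and the other 2 KO embryos were above WT_1 and below the other 4 WT embryos. With means of 451 ± 141 TPM (SD, n = 5) for WT and 283 ± 108 TPM (SD, n = 4) for KO, the log2 fold change was −0.70 ± 0.32 (SE; 95% interval −1.41 to 0.0089) and did not pass the threshold (limma with Benjamini-Hochberg adjustment, adjusted p = 0.836; exact two-sided permutation p = 0.0952). It was −0.43 without TE_3.

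*DDIT3*, which encodes the pro-apoptotic factor CHOP, was at 78.9, 67.7, 149, 98.5 and 65.8 TPM from WT_1 to WT_5 and, from TE_1 to TE_4, at 81.1, 103, 51.8 and 63.0 TPM. WT_3 was highest, as for *ATF4*, and TE_3 lowest, with the remaining 7 embryos between 63.0 and 103 TPM whatever their genotype. *DDIT3* had a log2 fold change of −0.27 ± 0.29 (SE; limma with Benjamini-Hochberg adjustment, adjusted p = 0.971), and of −0.085 without WT_3. *ATF3*, a stress-induced repressor and activator of transcription, was at 38.0, 20.0, 34.3, 22.2 and 13.5 TPM from WT_1 to WT_5 and, from TE_1 to TE_4, at 13.8, 32.5, 37.6 and 23.2 TPM. Its order was another one: TE_3, lowest for *DDIT3*, was next to the top for *ATF3*, and all KO values lay inside the WT range. The log2 fold change of *ATF3* was 0.064 ± 0.37 (SE; limma with Benjamini-Hochberg adjustment, adjusted p = 0.994), −0.13 without WT_5 and 0.45 with array weights.

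*TRIB3* encodes a pseudokinase that dampens ATF4 activity. It was at 4.62, 5.14, 18.2, 13.8 and 7.20 TPM from WT_1 to WT_5 and, from TE_1 to TE_4, at 6.60, 9.53, 3.78 and 6.48 TPM. WT_3 and WT_4 were above all other embryos, TE_3 was lowest, and the other 3 KO embryos lay among the WT values. *TRIB3* had a log2 fold change of −0.39 ± 0.43 (SE; limma with Benjamini-Hochberg adjustment, adjusted p = 0.971), and of −0.14 without WT_3.

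*CHAC1*, which encodes an enzyme that degrades glutathione, had the lowest log2 fold change of the 10. It was at 3.93, 4.55, 15.3, 9.81 and 6.53 TPM from WT_1 to WT_5 and, from TE_1 to TE_4, at 2.33, 11.8, 0.645 and 0.875 TPM. Below every WT embryo were TE_1, TE_3 and TE_4, whereas TE_2 was above all WT embryos but WT_3. The means were 8.03 ± 4.68 TPM (SD, n = 5) and 3.91 ± 5.31 TPM (SD, n = 4), with a log2 fold change of −1.27 ± 0.59 (SE; 95% interval −2.56 to 0.02) that did not pass the threshold (limma with Benjamini-Hochberg adjustment, adjusted p = 0.836; exact two-sided permutation p = 0.127); without TE_2 it was −1.91. Because 1 TPM was added before taking logarithms, the value understates the differences of so low a gene.

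*ASNS*, the asparagine synthetase gene, was at 69.1, 156, 128, 147 and 81.5 TPM from WT_1 to WT_5 and, from TE_1 to TE_4, at 91.0, 228, 18.4 and 84.6 TPM. Both the highest and the lowest value were in KO embryos, TE_2 and TE_3, and the highest was 12.4 times the lowest in KO against 2.26 times in WT; this difference in spread was not tested. The log2 fold change was −0.54 ± 0.56 (SE; limma with Benjamini-Hochberg adjustment, adjusted p = 0.970) and 0.13 without TE_3. *SESN2*, whose product restrains mTORC1 when leucine is short, was at 56.2, 22.7, 16.3, 13.2 and 15.4 TPM from WT_1 to WT_5 and, from TE_1 to TE_4, at 11.1, 21.7, 25.2 and 27.1 TPM. WT_1 was more than double any other embryo and TE_1 was lowest, with the groups otherwise mixed. The log2 fold change of *SESN2* was −0.067 ± 0.42 (SE; limma with Benjamini-Hochberg adjustment, adjusted p = 0.994), 0.27 without WT_1 and 0.16 with array weights.

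**Figure D2:**
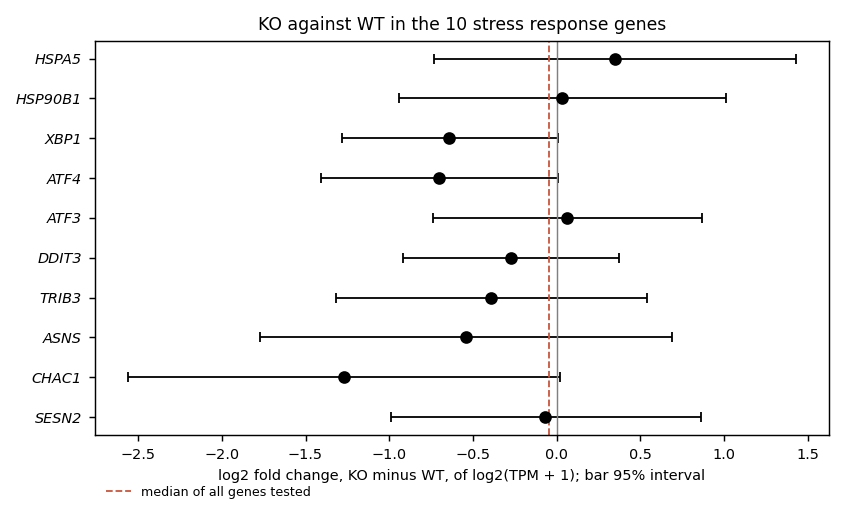
Log2 fold change of the 10 genes, KO minus WT on log2(TPM + 1) (horizontal axis; points), with 95% intervals from limma (bars), a grey line at 0 and a dashed line at the median of all genes tested (−0.046). All 10 intervals include 0; those of *XBP1*, *ATF4* and *CHAC1* end at 0.0083, 0.0089 and 0.02.

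By level, the 10 genes covered a wide range. In WT the order of the mean levels was *HSPA5*, *ATF4*, *XBP1*, *HSP90B1*, *ASNS*, *DDIT3*, *ATF3*, *SESN2*, *TRIB3* and *CHAC1*, from 695 ± 416 to 8.03 ± 4.68 TPM (SD, n = 5), and in KO *XBP1* and *HSP90B1* changed places, at 161 ± 64.9 and 198 ± 93.8 TPM (SD, n = 4). Among neighbours in the WT order, *ATF4* and *XBP1* differed by more than their SDs together, as did *DDIT3*, at 91.9 ± 34.2 TPM, and *ATF3*, at 25.6 ± 10.2 TPM (SD, n = 5). The other neighbours, such as *XBP1* and *HSP90B1* or *ATF3* and *SESN2*, did not. Mean levels of the 10 genes stood between the 48.3rd and the 98.2nd percentile of all genes tested. The SD of log2(TPM + 1) among the 5 WT embryos was largest for *HSPA5*, at 1.08 (the 96.3rd percentile of all genes tested), followed by *HSP90B1* at 0.933 (the 94.1st percentile), and smallest for *XBP1*, at 0.379 (the 54.8th percentile). Whether these SDs differ was not tested.

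Across the 10 genes, all embryos but WT_2 held a highest or a lowest value. WT_1 had the highest value for *HSP90B1*, *XBP1*, *ATF3* and *SESN2*, WT_3 for *ATF4*, *DDIT3*, *TRIB3* and *CHAC1*, and TE_2 for *HSPA5* and *ASNS*. The share of all genes tested that was highest in these libraries was 13.0%, 10.1% and 23.3%. TE_3 had the lowest value for *ATF4*, *DDIT3*, *TRIB3*, *ASNS* and *CHAC1*, and WT_4 for *HSPA5* and *HSP90B1*, where 13.0% and 11.9% of all genes tested were lowest. WT_5 was lowest for *ATF3*, TE_1 for *SESN2* and TE_4 for *XBP1*. TE_1 had the lowest value of 28% of all genes tested, the largest such share of any library. The number of genes above 0 TPM ranged from 14776 in TE_1 to 16678 in WT_3, and the 13 mitochondrially encoded genes took from 2.67% of TPM in TE_2 to 5.53% in WT_2. The part of such differences between libraries in the values above was not tested.

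Correlations over the 9 embryos were computed for all 45 pairs of the 10 genes on log2(TPM + 1), with p-values from exact permutation of all pairings of the embryos. Pearson's r had an adjusted p under 0.05 (Benjamini-Hochberg over the 45 pairs) for 5 pairs, all positive, and Spearman's rho for none. *HSPA5* and *HSP90B1* were the closest pair (r = 0.951, exact permutation p = 0.00240, adjusted p = 0.0389; rho = 0.850, exact permutation p = 0.00607, adjusted p = 0.124), with r = 0.811 without WT_4 and TE_2 and r = 0.968 after subtracting the mean of each genotype. The other pairs joined *ATF4* with *TRIB3* (r = 0.808, exact permutation p = 0.00346, adjusted p = 0.0389; rho = 0.750, p = 0.0255) and with *CHAC1* (r = 0.848, p = 0.00438, adjusted p = 0.0394; rho = 0.783, p = 0.0172). *DDIT3* was likewise paired with *TRIB3* (r = 0.885, exact permutation p = 0.00267, adjusted p = 0.0389; rho = 0.783, p = 0.0172) and with *CHAC1* (r = 0.841, p = 0.00243, adjusted p = 0.0389; rho = 0.833, p = 0.00827). Adjusted p-values of rho were 0.124 for *DDIT3* with *CHAC1*, 0.155 for *ATF4* with *CHAC1* and *DDIT3* with *TRIB3*, and 0.164 for *ATF4* with *TRIB3*. Leaving out WT_3 and TE_3, the embryos farthest from the median of *ATF4* and of *DDIT3*, lowered r to 0.582 for *ATF4* and *TRIB3*, 0.677 for *ATF4* and *CHAC1*, 0.676 for *DDIT3* and *TRIB3* and 0.698 for *DDIT3* and *CHAC1*. Leaving out the extremes of a gene narrows its range, which by itself tends to lower r. How far these relations rested on those 2 embryos was not tested. *HSPA5* was not paired with *ATF4* in this way (r = −0.316, exact permutation p = 0.391, adjusted p = 0.716; rho = −0.167, exact permutation p = 0.678, adjusted p = 0.847; r = −0.190 without WT_4 and TE_2). *SESN2* had a positive r with *HSPA5* (r = 0.662, exact permutation p = 0.0358, adjusted p = 0.146; rho = 0.617, p = 0.0857, adjusted p = 0.272; r = 0.913 without WT_4 and TE_2) and a negative one with *ATF4* (r = −0.561, exact permutation p = 0.141, adjusted p = 0.354; rho = −0.633, p = 0.076, adjusted p = 0.263), neither under the limit. All values of a pair come from the same libraries, which also differ from each other over many other genes. The share of pairs among all genes tested that would pass the same limit was not computed. The 5 pairs are therefore a description and are not read as particular to these genes.

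The wider pathways were described by lists of genes that hold 153 symbols between them, of which 150 were tested. No gene of the lists was called changed by limma (0 of 150), and at an unadjusted p under 0.05 there were 9 genes lower in KO (6.0%, against 3.83% of all genes tested) and 0 higher. The number at that limit, in either direction, was 25 without TE_2, when that of all genes tested rose as well, to 1235 of 14661, and 6 without TE_3. The mean of log2(TPM + 1) was lower in KO for 94 of the 150 (62.7%, against 55.8%), and the median log2 fold change was −0.11. All KO embryos were below all WT embryos for 2 genes, *STC2* and *MTHFD2* (1.33%, against 1.23% of all genes tested). The 9 genes lower at an unadjusted p under 0.05 were *STC2*, *GDF15*, *FGF21*, *PSAT1*, *MTHFD2*, *PYCR1*, *SLC1A4*, *GARS1* and *DNAJB4*, of which 7 belong to the lists of integrated stress response regulators and of amino acid targets of ATF4.

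**Figure D3:**
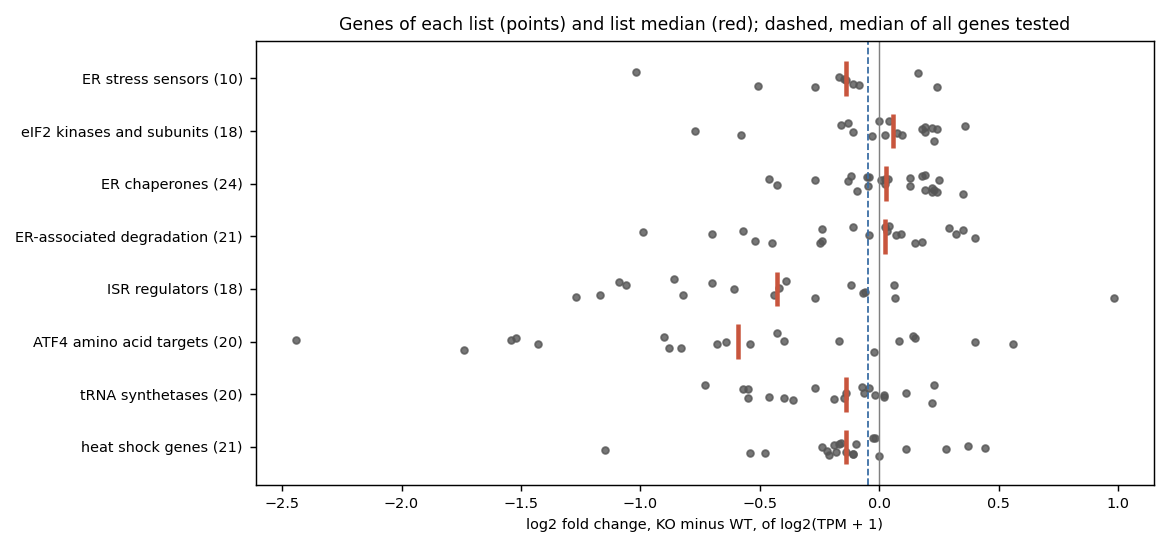
Log2 fold change, KO minus WT on log2(TPM + 1) (horizontal axis), of each gene tested in 8 pathway lists (points; number tested in brackets), with the median of each list (red bar), a grey line at 0 and a dashed line at the median of all genes tested. List medians run from −0.59 for the amino acid targets of ATF4 to 0.058 for the eIF2 kinases and subunits; no point is a gene called changed.

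Among the 10 genes for ER stress sensors and the proteases that activate them, 0 were called changed and 0 had an unadjusted p under 0.05 in limma. Over all genes tested these shares were 0.0205% and 5.90%. A lower mean of log2(TPM + 1) in KO was found for 8 of the 10 (median −0.14), against 55.8% of all genes tested. *ATF6* had the lowest log2 fold change, with 21.5, 9.43, 7.48, 5.46 and 5.88 TPM from WT_1 to WT_5 and, from TE_1 to TE_4, 0.230, 9.50, 3.77 and 7.78 TPM. TE_1 was nearly without the transcript, TE_3 was also below every WT embryo and WT_1 was high, with the other embryos mixed. The log2 fold change was −1.02 ± 0.61 (SE, limma with Benjamini-Hochberg adjustment, adjusted p = 0.897). TE_1 was the lowest library for 28% of all genes tested, and without TE_1 the log2 fold change was −0.36. At the other end stood *MBTPS1*, the gene of the protease that first cuts ATF6, with 8.94 to 21.1 TPM in WT and 8.33 to 32.0 TPM in KO (log2 fold change 0.24, and −0.046 without TE_2). *CREB3*, an ER-bound transcription factor with the highest mean level of the list over the 9 embryos, though not in KO alone, ranged from 15.4 to 24.1 TPM in WT and from 11.0 to 27.1 TPM in KO (log2 fold change −0.15, and 0.065 without TE_4).

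Of 18 genes for eIF2 kinases, for subunits of eIF2 and its exchange factor eIF2B and for the phosphatase that reverses the signal, 6 had a lower and 12 a higher mean of log2(TPM + 1) in KO (median 0.058), with 0 called and 0 at an unadjusted p under 0.05 in limma. Over all genes tested, 55.8% had a lower mean in KO, 0.0205% were called and 5.90% had an unadjusted p under 0.05. *EIF2S1*, which encodes the phosphorylated subunit, had the highest log2 fold change, with 645, 277, 292, 315 and 236 TPM from WT_1 to WT_5 and, from TE_1 to TE_4, 251, 388, 456 and 730 TPM. TE_4 was above every WT embryo, and TE_2 and TE_3 were above 4 of the 5, but WT_1 was near the top. The log2 fold change was 0.36 ± 0.35 (SE, limma with Benjamini-Hochberg adjustment, adjusted p = 0.966), and without TE_4 it was 0.10. *EIF2AK2*, the gene of the kinase PKR activated by double-stranded RNA, had the lowest, with 0.523 to 5.68 TPM in WT and 0.207, 0.277 and 2.45 TPM in TE_1 to TE_3, and was listed at 0 in TE_4 (log2 fold change −0.77, and −1.85 with a pseudocount of 0.1 TPM). *PPP1CA*, the catalytic phosphatase subunit and the most abundant gene of the list, was even across embryos, at 435 to 582 TPM in WT and 378 to 519 TPM in KO (log2 fold change −0.13, and −0.045 without TE_1).

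The list of ER chaperones and folding enzymes showed how far the pattern of *HSPA5* and *HSP90B1* extended. All 24 genes were tested, and in limma 0 were called and 0 had an unadjusted p under 0.05, against 0.0205% and 5.90% of all genes tested. A lower mean of log2(TPM + 1) in KO was found for 9 and a higher one for 15 (median 0.029), where 55.8% of all genes tested were lower. WT_4 had the lowest value for 18 of the 24 genes and WT_1 the highest for 13. Over all genes tested, WT_4 was lowest for 11.9% and WT_1 highest for 13.0%. The 24 genes summed to 8316, 5628, 5601, 2326 and 5946 TPM from WT_1 to WT_5 and, from TE_1 to TE_4, to 5141, 7564, 5143 and 5072 TPM. WT_4 thus had the lowest sum and WT_1 the highest, and the KO sums lay between them. *HSPA5* had the highest log2 fold change of the list. Its mean level over the 9 embryos, 738 TPM, was next to that of *PPIB*, a prolyl isomerase gene, at 734 TPM, and in WT *PPIB* was above it, at 705 ± 178 against 695 ± 416 TPM (SD, n = 5), so their order is not settled. The lowest was that of *DNAJB9*, a co-chaperone that helps BiP repress IRE1, with 180, 86.1, 100, 45.8 and 70.1 TPM from WT_1 to WT_5 and, from TE_1 to TE_4, 40.0, 163, 29.9 and 81.2 TPM. TE_1 and TE_3 were below every WT embryo for *DNAJB9* and TE_2 was near the top (log2 fold change −0.46 ± 0.49, SE; limma with Benjamini-Hochberg adjustment, adjusted p = 0.971; −0.91 without TE_2 and −0.10 without TE_3). *CALR*, chosen after its values were seen, repeated the order of *HSPA5* at both ends in WT, with 1000 TPM in WT_1 and 149 TPM in WT_4.

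**Figure D4:**
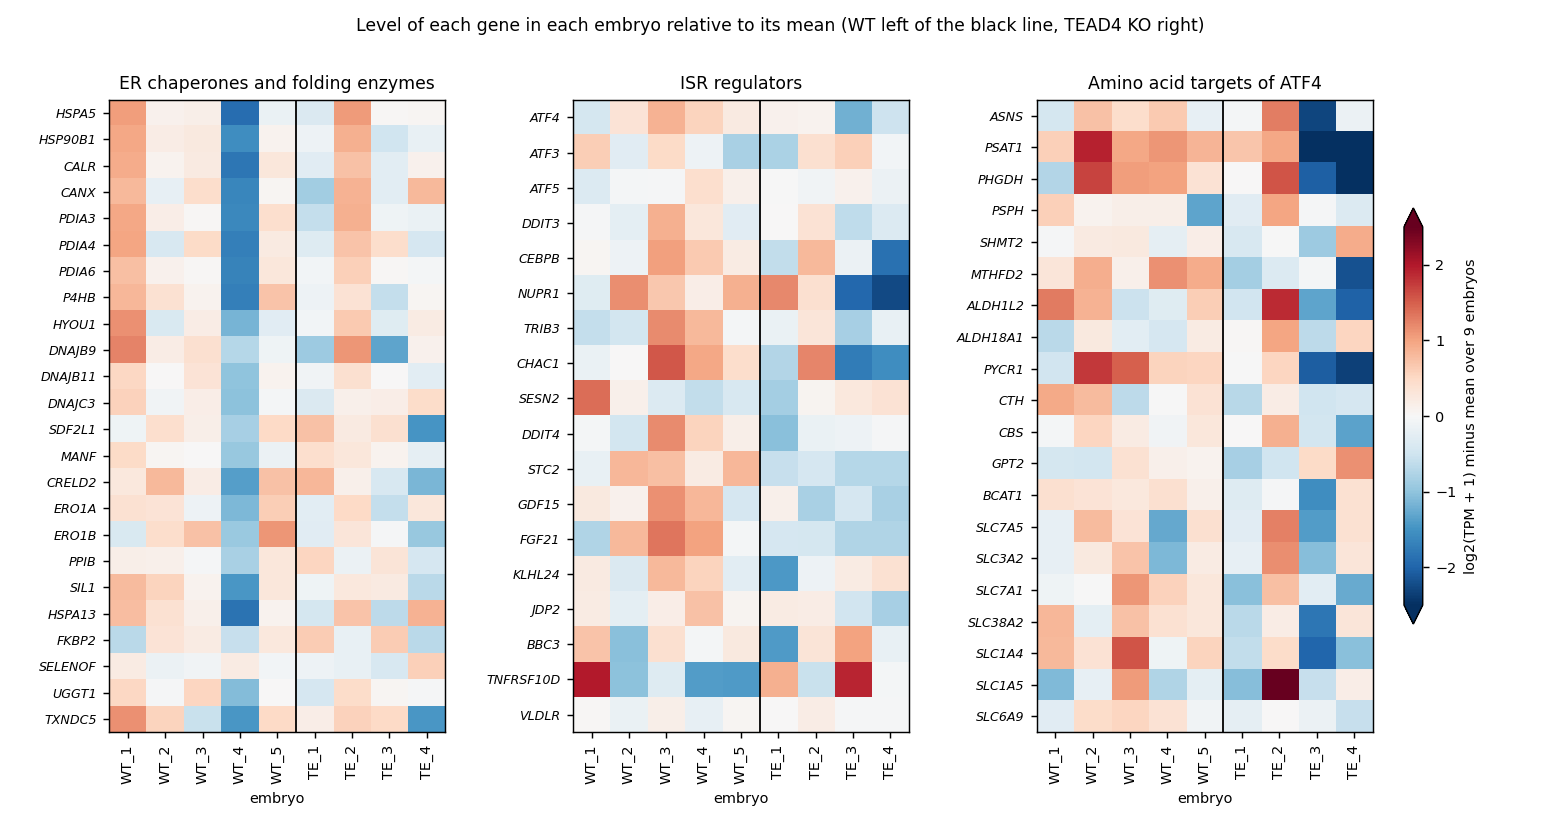
Level of each gene tested (rows) in each embryo (columns; WT left and *TEAD4* KO right of the black line) for 3 lists, coloured by log2(TPM + 1) minus the mean of the gene over the 9 embryos, red above and blue below. WT_4 is blue through most of the ER chaperones and has the lowest value for 18 of them, against 11.9% of all genes tested. TE_3 and TE_4 are blue for genes such as *PSAT1*, *PHGDH*, *PYCR1*, *NUPR1* and *CHAC1*, picked after their values were seen. This pair is lowest for 6 of the 18 ISR regulators and 6 of the 20 amino acid genes, against 2.27% of all genes tested. Other genes go the other way: TE_4 is highest for *SHMT2* and *GPT2*, and TE_3 for *BBC3*.

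Genes of ER-associated degradation, which extracts misfolded proteins for the proteasome, were split evenly. Of 21 tested, 10 had a lower and 11 a higher mean of log2(TPM + 1) in KO (median 0.022), where 55.8% of all genes tested were lower. In limma 0 were called and 0 had an unadjusted p under 0.05, against 0.0205% and 5.90% of all genes tested. WT_4 again had the lowest value for 12 of the 21, against 11.9% of all genes tested. *HERPUD1*, an ER membrane protein gene activated in the unfolded protein response, was at 85.8, 43.6, 56.2, 24.3 and 40.3 TPM from WT_1 to WT_5 and, from TE_1 to TE_4, at 28.6, 66.4, 14.9 and 9.02 TPM. TE_3 and TE_4 were below every WT embryo, TE_1 was above WT_4 alone, and TE_2 was above all but WT_1 (log2 fold change −0.99 ± 0.51, SE; limma with Benjamini-Hochberg adjustment, adjusted p = 0.877; −0.57 without TE_4). *DERL3*, which encodes a channel component of this pathway, had the highest log2 fold change (0.40, but 0.067 without WT_4 and 0.96 without TE_4), with 6.97 to 31.9 TPM in WT and 7.11 to 49.0 TPM in KO. *UBE2G2*, the gene of a ubiquitin-conjugating enzyme, had the highest mean of the list over the 9 embryos (237 TPM), though in WT *SELENOK* was above it, at 234 ± 35.4 against 210 ± 12.6 TPM (SD, n = 5). *UBE2G2* was at 194 to 229 TPM in WT, and the KO embryos, from TE_1 to TE_4, had 313, 164, 350 and 259 TPM. For *UBE2G2*, 3 KO embryos were thus above and 1 below every WT embryo (log2 fold change 0.32 ± 0.23, SE; limma with Benjamini-Hochberg adjustment, adjusted p = 0.934; 0.54 without TE_2 and 0.18 without TE_3).

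Of 18 integrated stress response transcription factors and regulators tested, 15 had a lower mean of log2(TPM + 1) in KO (median −0.43), where 55.8% of all genes tested did. In limma 0 were called, and 3 had an unadjusted p under 0.05, all lower, *STC2*, *GDF15* and *FGF21*, against 3.83% of all genes tested; the list as a whole was not tested. *STC2*, which encodes a secreted glycoprotein, was at 0.434, 1.90, 1.77, 0.878 and 1.92 TPM in WT_1 to WT_5, at 0.0961 and 0.224 TPM in TE_1 and TE_2, and was listed at 0 in TE_3 and TE_4. The highest KO value of *STC2* was below its lowest WT value, at low levels throughout (log2 fold change −1.09 ± 0.24, SE; limma with Benjamini-Hochberg adjustment, adjusted p = 0.330; exact two-sided permutation p = 0.0159, the smallest possible); with a pseudocount of 0.1 TPM the log2 fold change was −3.05. *STC2* was named here after its values were seen and is also among the genes the study picked from these libraries, so its direction is not independent evidence. *GDF15* and *FGF21*, secreted factors released under stress, were at up to 2.85 and 3.25 TPM in WT and at up to 0.910 and 0.258 TPM in KO. Both were listed at 0 in some embryos, *FGF21* also in WT_1, and their WT and KO values overlapped.

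*TNFRSF10D*, listed under the name of a decoy receptor of the death ligand TRAIL, had the highest log2 fold change of these regulators. It was at 44.6, 4.64, 8.22, 3.40 and 3.31 TPM from WT_1 to WT_5 and, from TE_1 to TE_4, at 20.4, 6.84, 42.0 and 10.2 TPM. The highest value was in WT_1, TE_3 was close to it, and the groups overlapped (log2 fold change 0.98 ± 0.70, SE; limma with Benjamini-Hochberg adjustment, adjusted p = 0.931; 1.59 without WT_1 and 0.53 without TE_3). Receptors of this family share sequence, so its level is uncertain. *CHAC1* had the lowest log2 fold change and *ATF4* the highest level of the list. *CEBPG* was not matched in the table.

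Amino acid synthesis and transport genes that ATF4 activates had the lowest list median. Of 20 genes tested, 15 had a lower mean of log2(TPM + 1) in KO (median −0.59), where 55.8% of all genes tested did. In limma 0 were called, against 0.0205% of all genes tested, and 4 had an unadjusted p under 0.05, all lower, *PSAT1*, *MTHFD2*, *PYCR1* and *SLC1A4*, against 3.83%; this list was not tested as a whole either. *SLC7A11* and *SLC7A3* were below the filter and were not tested. *PSAT1*, the aminotransferase gene of serine synthesis, had the lowest log2 fold change, with 53.6, 137, 70.2, 76.7 and 64.3 TPM from WT_1 to WT_5 and, from TE_1 to TE_4, 57.6, 69.7, 0.781 and 4.49 TPM. TE_1 and TE_2 lay among the WT embryos and TE_3 and TE_4 far below all others (log2 fold change −2.44 ± 0.92, SE; limma with Benjamini-Hochberg adjustment, adjusted p = 0.749; exact two-sided permutation p = 0.0952). Without TE_3 the log2 fold change was −1.44 and without TE_2 it was −3.21.

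*MTHFD2*, a mitochondrial enzyme gene of the folate cycle, was the gene of this list whose groups did not overlap. It was at 121, 185, 106, 218 and 187 TPM from WT_1 to WT_5 and, from TE_1 to TE_4, at 53.5, 76.9, 93.7 and 20.9 TPM. The highest KO value, in TE_3, was below the lowest WT value, in WT_3, and TE_4 was far below the rest. The means were 164 ± 47.7 TPM (SD, n = 5) and 61.2 ± 31.6 TPM (SD, n = 4), with a log2 fold change of −1.54 ± 0.40 (SE) that did not pass the threshold (limma with Benjamini-Hochberg adjustment, adjusted p = 0.484; exact two-sided permutation p = 0.0159, the smallest possible). *MTHFD2* was named after its values were seen, and 1.23% of all genes tested were arranged in this way.

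At the top of the same list, *SLC1A5*, the gene of a glutamine transporter, was at 8.18, 16.1, 40.0, 10.6 and 15.5 TPM from WT_1 to WT_5 and, from TE_1 to TE_4, at 8.34, 128, 12.1 and 21.1 TPM. TE_2 stood far above all others and the rest were mixed; the log2 fold change was 0.56 ± 0.69 (SE; limma with Benjamini-Hochberg adjustment, adjusted p = 0.980) and −0.24 without TE_2. *PSPH*, which encodes the phosphatase that ends serine synthesis, had the highest mean of the list over the 9 embryos (159 TPM), though in WT *MTHFD2* was above it, at 164 ± 47.7 against 152 ± 58.7 TPM (SD, n = 5). *PSPH* ranged from 58.4 to 221 TPM in WT and from 116 to 293 TPM in KO. Its highest value was again in TE_2 (log2 fold change 0.15, −0.16 without WT_5 and 0.66 with array weights).

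The KO embryos were not alike in these lists. TE_3 and TE_4 had the lowest pair of values of all 9 embryos for 6 of the 18 regulators (*ATF4*, *DDIT3*, *NUPR1*, *CHAC1*, *STC2* and *JDP2*) and for 6 of the 20 amino acid genes (*PSAT1*, *PHGDH*, *ALDH1L2*, *PYCR1*, *CBS* and *SLC1A4*). Over the 150 genes of all lists this was seen for 14 (9.33%), and over all genes tested for 332 of 14599 (2.27%). *PHGDH*, the first enzyme gene of serine synthesis, was at 28.5, 156, 100, 96.6 and 61.3 TPM from WT_1 to WT_5 and, from TE_1 to TE_4, at 47.7, 143, 10.8 and 5.53 TPM. *NUPR1*, a stress-induced transcriptional regulator, was at 105, 294, 209, 147 and 243 TPM from WT_1 to WT_5 and, from TE_1 to TE_4, at 300, 173, 32.8 and 26.5 TPM. For both, TE_1 and TE_2 lay within or just past the WT range, and TE_3 and TE_4 below it. This pair of embryos and these genes were picked after their values were seen, so the counts are a description and no test was made.

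Aminoacyl-tRNA synthetases, many of which are also activated by ATF4, had a lower mean of log2(TPM + 1) in KO for 15 of 20 genes tested (median −0.14), against 55.8% of all genes tested, with 0 called and 1, *GARS1*, lower at an unadjusted p under 0.05 in limma (3.83% of all genes tested). TE_3 had the lowest value for 12 of the 20 and TE_2 the highest for 6. Over all genes tested, TE_3 was lowest for 13.0% and TE_2 highest for 23.3%. *GARS1*, the glycyl-tRNA synthetase gene, was at 118, 131, 121, 119 and 95.6 TPM from WT_1 to WT_5 and, from TE_1 to TE_4, at 58.6, 155, 45.7 and 55.9 TPM. The WT embryos were close together, 3 KO embryos were below all of them, and TE_2 was above all of them (log2 fold change −0.73 ± 0.32, SE; limma with Benjamini-Hochberg adjustment, adjusted p = 0.83; exact two-sided permutation p = 0.0952), and without TE_2 the log2 fold change was −1.11. *KARS1*, the lysyl-tRNA synthetase gene, had the highest log2 fold change (0.23, and 0.07 without TE_4), with 86.3 to 126 TPM in WT and 94.1 to 167 TPM in KO. *SARS1*, the seryl-tRNA synthetase gene and the most abundant, was at 184 to 237 TPM in WT and, from TE_1 to TE_4, at 139, 345, 139 and 285 TPM. Its KO embryos lay on both sides of the WT range, 2 below and 2 above, and the log2 fold change was −0.017, but 0.18 without TE_1, 0.041 with size factors and 0.053 with array weights.

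Markers of the cell types of the blastocyst were set beside these values, since the libraries hold whole embryos. The 9 trophectoderm markers, led by the keratin gene *KRT8*, summed to 18250, 14014, 7928, 4270 and 14172 TPM from WT_1 to WT_5 and, from TE_1 to TE_4, to 9384, 12549, 7382 and 6641 TPM. WT_1 and WT_4 were the highest and the lowest embryo here as they were for the ER chaperone sum, but *KRT8* and *KRT18* made up most of the marker sum in every embryo. Taken one by one, WT_1 was highest for *KRT8* and *KRT18* alone and WT_4 lowest for these and *CDX2*, while *GATA3*, *GATA2* and *ELF5* were lowest in TE_4 and highest in TE_3. The 5 inner cell mass and epiblast markers, led by *POU5F1*, summed to 781, 999, 1584, 2150 and 1245 TPM from WT_1 to WT_5 and, from TE_1 to TE_4, to 1553, 2195, 1371 and 2051 TPM. WT_1 had the lowest sum, and WT_4 and TE_2 the highest. *POU5F1* made up most of this sum, with 2142 of 2195 TPM in TE_2. *SOX2* and *PRDM14* were at 21.0 and 25.8 TPM in TE_2 and at 90.4 and 92.6 TPM in WT_4, which was highest for all markers of the list but *POU5F1*. *NANOG*, the epiblast marker, was at 0.127, 29.3, 53.4, 262 and 90.2 TPM from WT_1 to WT_5 and, from TE_1 to TE_4, at 53.3, 2.70, 3.55 and 26.3 TPM, and so was nearly missing from WT_1 and highest in WT_4. The 5 hypoblast markers, led by *GATA6*, summed to 82.4, 96.5, 117, 109 and 147 TPM from WT_1 to WT_5 and, from TE_1 to TE_4, to 44.9, 152, 57.8 and 81.1 TPM, with TE_2 highest and TE_1 lowest. *GATA6* made up most of this sum too, with 146 of 152 TPM in TE_2, which had the lowest value of all embryos for *SOX17* (1.91 TPM) and was below every WT embryo for *GATA4*. The mean of log2(TPM + 1) was lower in KO for 6 of the 9, 4 of the 5 and 5 of the 5 markers, against 55.8% of all genes tested; *POU5F1* was the inner cell mass marker with a higher one (log2 fold change 0.57; limma, unadjusted p = 0.0509). No marker of the 3 lists was at 0 in all embryos, and none was called changed (limma, 0 of 9, 0 of 5 and 0 of 5), with 0, 0 and 1 at an unadjusted p under 0.05 (5.90% of all genes tested). The 1 was *GATA4*, at 1.43, 1.75, 1.09, 1.31 and 1.74 TPM from WT_1 to WT_5 and, from TE_1 to TE_4, at 0.367, 0.600, 0.957 and 0.638 TPM. All KO values of *GATA4* were below all WT values, at low levels (log2 fold change −0.59 ± 0.20, SE; limma with Benjamini-Hochberg adjustment, adjusted p = 0.684; exact two-sided permutation p = 0.0159), and 1.23% of all genes tested were arranged in this way. The part of the share of trophectoderm and inner cell mass in the levels of *HSPA5*, *HSP90B1* and the other chaperones was not tested.

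**Figure D5:**
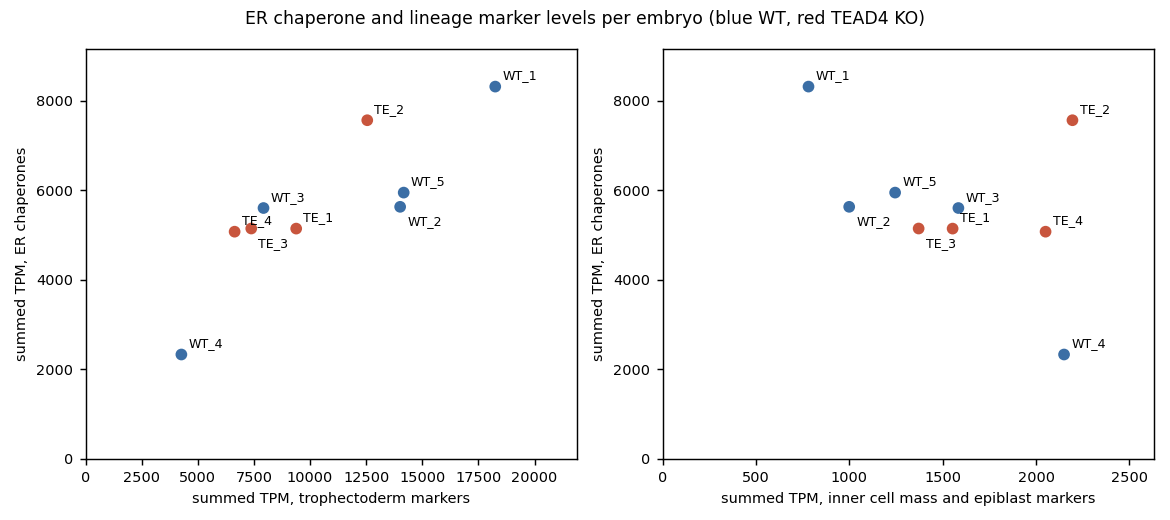
Summed TPM of 24 ER chaperone genes (vertical axes) against the summed TPM of 9 trophectoderm markers (left) and of 5 inner cell mass and epiblast markers (right), with 1 point per embryo (blue WT, red *TEAD4* KO). WT_1 (8316 TPM of chaperones) and WT_4 (2326 TPM) lie at opposite ends on the left, at 18250 and 4270 TPM of trophectoderm markers. *KRT8* and *KRT18* make up most of the left sum and *POU5F1* most of the right one.

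Genes that followed *HSPA5* and *TRIB3* most closely over the 9 libraries were looked up among 10728 genes with a symbol and a mean of at least 1 TPM. For *HSPA5* they were *ATP6V0A4* and *CALR* (both r = 0.966), *TMEM59* (r = 0.962), *PDIA6* (r = 0.956) and *CRELD1* (r = 0.955), of which *CALR* and *PDIA6* encode an ER chaperone and a disulphide isomerase. For *TRIB3* they were *TM9SF5* (r = 0.944), *SLC7A7* (r = 0.927), *LRP8* (r = 0.921), *IPCEF1* (r = 0.919) and *CREB3L4* (r = 0.917). None of the 5 genes nearest to *TRIB3* is on the pathway lists. These values are the highest of many and describe the 9 libraries, which all the genes share; no p is given.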

How the data were processed

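RNA of 9 individual D8 blastocysts, 5 WT and 4 *TEAD4* KO, was sequenced with 1 library per embryo. The deposited table holds TPM, which the authors made after quality control and trimming; the submitters' processing notes name FastQC, fastp and kallisto, with versions not given, and the annotation and build are not given in the sources used here. The labels and the study's methods describe different library kits and sequencers. Columns were assigned to a genotype by name. The study gives a range of reads per sample but not the depth of each library; TPM keeps no read counts, so counting error was not computed and no count model was run.

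Genes with a median above 0.1 TPM were tested on log2(TPM + 1), a scale computed here from the deposited TPM, with limma 3.58.1 (lmFit, eBayes with trend) in R 4.3.3 and Benjamini-Hochberg adjustment over all 14599 genes. A gene was called changed where its adjusted p was under 0.05 and its log2 fold change above 1 in size. The fit was tested on simulated data with 5 and 4 libraries, where it recovered 169 of 200 changed genes and called 11 unchanged ones. Recovery was 76.3% for changes of 2 and 92.2% for changes of 3 on the log2 scale. The changed genes were drawn only from genes above a set WT level, which *TRIB3* and *CHAC1* did not reach, and noise was independent between genes. With 200 genes changed, the Benjamini-Hochberg limit is also less strict than in the real fit, where 3 were called. These shares therefore do not give the power of the comparisons reported here. Intervals are 95%. For single genes an exact permutation test (two-sided) used the 126 divisions of the embryos. Python 3.11.15, numpy 2.4.6, pandas 2.3.3, scipy 1.17.1 and matplotlib 3.10.9 were used. Of the gene names, 17805 were matched to RefSeq symbols.

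The members and lists were chosen with earlier results of these data known. From each list the text names the genes with the highest and the lowest log2 fold change and the most abundant gene, with any gene called changed; for *HSPA5* and *TRIB3* it names the 5 genes with the highest Pearson's r. Genes named besides these, among them *CALR*, *STC2*, *MTHFD2*, *GDF15*, *FGF21*, *PYCR1*, *SLC1A4*, *PHGDH*, *NUPR1* and *GATA4*, were chosen after their values were seen. Lists covered ER stress sensors, eIF2 kinases and subunits, ER chaperones, ER-associated degradation, integrated stress response regulators, amino acid targets of ATF4, aminoacyl-tRNA synthetases, heat shock genes, and markers of trophectoderm, inner cell mass, hypoblast and cumulus cells. As alternatives, the pseudocount was set to 0.1 TPM, and the fit was run with no filter, a median above 1 TPM, size factors, no trend, array weights, and leaving out each embryo.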

Additional observations from a re-analysis of the deposited data

Results flagged for a closer look

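In 33 genes named in the text, each genotype was searched for an embryo far from the others of its group by Dixon's criterion, and 12 of 66 groups had one. Chance flags about 1 in 20 groups where values are normally distributed; TPM are skewed, many of the genes were named for extreme fold changes and genes of one library are not independent, so the count is not read against that rate. WT_1 was the distant embryo for 5 genes: *SESN2* at 56.2 TPM (other WT embryos 13.2 to 22.7), *ATF6* at 21.5 TPM (5.46 to 9.43), *EIF2S1* at 645 TPM (236 to 315), *TNFRSF10D* at 44.6 TPM (3.31 to 8.22) and *HSPA1L* at 1.15 TPM (up to 0.252). TE_2 was high for *CHAC1* at 11.8 TPM (other KO embryos 0.645 to 2.33), *SLC1A5* at 128 TPM (8.34 to 21.1), *PSPH* at 293 TPM (116 to 143) and *GARS1* at 155 TPM (45.7 to 58.6). *SLC1A5* was also high in WT_3 at 40.0 TPM (8.18 to 16.1), *PSAT1* in WT_2 at 137 TPM (53.6 to 76.7) and *EIF2AK2* in TE_3 at 2.45 TPM (up to 0.277). In all of them the distant embryo was above the others of its group.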

How the results depend on the processing

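Over 15 alternatives, no stress response gene and no list gene of the pathways was called changed, and the median log2 fold change of the 10 genes stayed between −0.50 and −0.15. Of 150 log2 fold changes of the 10 genes, 139 kept their sign and 11 reversed it. Of 342 for 23 other named genes, 331 kept it and 11 reversed it. The log2 fold changes of *GATA4*, *POU5F1*, *CYP11A1*, *AMH* and *CYP19A1* were not followed under the alternatives. The cause of the reversals was not tested. With array weights *HSP90B1* was at −0.079, *SESN2* at 0.16, *SARS1* at 0.053, *ATF3* at 0.45 and *PSPH* at 0.66, and with size factors *SARS1* was at 0.041. Leaving out each embryo gave ranges of −0.09 to 0.65 for *HSPA5*, −0.35 to 0.28 for *HSP90B1*, −0.13 to 0.34 for *ATF3*, −1.06 to 0.13 for *ASNS*, −0.23 to 0.27 for *SESN2*, −0.046 to 0.56 for *MBTPS1*, −0.34 to 0.065 for *CREB3*, −0.24 to 1.02 for *SLC1A5*, −0.16 to 0.31 for *PSPH* and −0.26 to 0.18 for *SARS1*. Of 23 named genes that kept their sign throughout, 21 moved by over 1.5 times under at least 1 alternative, with ranges over all alternatives of −0.87 to −0.41 for *XBP1*, −0.88 to −0.43 for *ATF4*, −0.44 to −0.085 for *DDIT3*, −0.58 to −0.14 for *TRIB3*, −1.91 to −0.92 for *CHAC1*, −1.48 to −0.36 for *ATF6*, 0.10 to 0.66 for *EIF2S1*, −1.85 to −0.42 for *EIF2AK2*, −0.21 to −0.045 for *PPP1CA*, −0.91 to −0.10 for *DNAJB9*, 0.067 to 0.96 for *DERL3*, −1.49 to −0.57 for *HERPUD1*, 0.18 to 0.54 for *UBE2G2*, 0.53 to 1.59 for *TNFRSF10D*, −3.21 to −1.44 for *PSAT1*, 0.07 to 0.34 for *KARS1*, −1.11 to −0.53 for *GARS1*, 0.25 to 1.34 for *HSPA1L*, −0.49 to −0.046 for *HSPB1*, −3.05 to −1.0 for *STC2* and −0.77 to −0.16 for *TEAD4*. The number of the 10 genes at an unadjusted p under 0.05 in limma ran from 0 to 3 and that of the pathway genes from 6 to 25. The number of genes called among all tested was 3, but 8 with a pseudocount of 0.1 TPM, 8 with a median above 1 TPM, 5 with size factors (4 higher and 1 lower, against 2 and 1), 5 without trend and 0 to 10 when each embryo was left out (10 without TE_3). A median above 1 TPM left *EIF2AK2*, *HSPA1L* and *STC2* untested. No paired analysis was possible because the titles of the samples number the embryos without repeats and nothing pairs them. Values near 0 TPM, as for *STC2*, *GDF15* and *FGF21*, carry a counting error that TPM does not show, and with 5 and 4 embryos the intervals of all of the 10 genes but *ATF3*, *DDIT3* and *SESN2* run past 1 or −1 on the log2 scale.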

Other observations

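Cytosolic and mitochondrial heat shock genes, the counterpart of the ER chaperones outside the ER, were described in the same way. Of 21 genes tested, 17 had a lower mean of log2(TPM + 1) in KO (median −0.14), against 55.8% of all genes tested, with 0 called and 1, *DNAJB4*, lower at an unadjusted p under 0.05 in limma (3.83% of all genes tested). *DNAJB4*, a co-chaperone gene, was at 8.25, 5.03, 11.0, 10.7 and 4.95 TPM from WT_1 to WT_5 and, from TE_1 to TE_4, at 0.782, 8.62, 2.89 and 2.32 TPM. Below every WT embryo were 3 KO embryos, with TE_2 among the WT values (log2 fold change −1.15 ± 0.47, SE; limma with Benjamini-Hochberg adjustment, adjusted p = 0.783). *HSPB1*, the most abundant, was at 1808, 2374, 3109, 3048 and 4342 TPM from WT_1 to WT_5 and, from TE_1 to TE_4, at 3649, 1613, 2745 and 2023 TPM. WT_1 and TE_2, high for *HSPA5*, were the lowest embryos for *HSPB1*, while WT_4, lowest for *HSPA5*, had 3048 TPM. *HSPA1L* had the highest log2 fold change (0.44, and 1.34 with a pseudocount of 0.1 TPM) at levels of at most 1.49 TPM, and is uncertain because it is closely related in sequence to *HSPA1A*. The list summed to 8865, 9265, 10998, 10591 and 11205 TPM from WT_1 to WT_5 and, from TE_1 to TE_4, to 10680, 8707, 8488 and 9577 TPM, so WT_4 was not low here.

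Of 10 markers of cumulus and granulosa cells, which surround the oocyte and were removed before injection, 6 were tested, 0 were called and 1, *CYP11A1*, was lower at an unadjusted p under 0.05 in limma (3.83% of all genes tested). *CYP11A1*, the gene of the enzyme that starts steroid synthesis, was the most abundant, at 247, 90.9, 52.7, 116 and 139 TPM from WT_1 to WT_5 and, from TE_1 to TE_4, at 26.7, 7.22, 96.7 and 4.57 TPM. TE_3 lay among the WT embryos and the other 3 KO embryos below all of them (log2 fold change −2.61 ± 0.73, SE; limma with Benjamini-Hochberg adjustment, adjusted p = 0.566). *INHA*, *VCAN*, *HAS2* and *PTX3* were at most at 0.520 TPM in any embryo and were not tested. The list summed to 267, 129, 76.9, 137 and 171 TPM from WT_1 to WT_5 and, from TE_1 to TE_4, to 57.7, 37.8, 130 and 8.89 TPM. *CYP11A1* made up most of the sum in WT, with 247 of 267 TPM in WT_1, and *AMH* and *CYP19A1*, at up to 2.27 and 3.05 TPM, had higher means of log2(TPM + 1) in KO (log2 fold changes 0.52 and 0.33). *FSHR* was at 12.1 to 26.8 TPM in WT and 1.36 to 23.3 TPM in KO, and in TE_2 it was above *CYP11A1* (21.8 against 7.22 TPM). *STAR* was at 4.48 to 11.7 TPM in WT and 1.62 to 6.60 TPM in KO. *CYP11A1*, *FSHR* and *STAR* were named after their values were seen.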
